A study of Mus musculus with 10 samples.

Results

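The 39 protein-coding Hox genes of the mouse were followed in primary sarcomas of a dual-recombinase model of CIC::DUX4 sarcoma (CDS) and of KP mice. Members were all features of the count table whose Ensembl identifier maps to a protein-coding gene named Hoxa, Hoxb, Hoxc or Hoxd and a number, 39 of 56750 features in all. They comprised 11 HoxA, 10 HoxB, 9 HoxC and 9 HoxD genes. The dFLEx CDS tumors (3 tumors, named 170019, 170024 and 170025) came from heterozygous mice that carry a CIC::DUX4 transgene at Rosa26 under the CAG promoter, switched on in young adult animals by electroporation of the gastrocnemius, a hind limb muscle, with plasmids for both recombinases (pCAG-Cre, pCAG-FLPE). The KP tumors (2 tumors, 3800 and 3802) came from mice with floxed p53 alleles and a conditional oncogene allele. Their age, the way recombination was started and the site where they arose are not given in the sources used here, so the oncogene and the site of origin cannot be told apart in any comparison of the groups. RNA of each tumor was split into duplicate libraries, whose counts were added up, so the tumor was the replicate. The second library of tumor 3802 was not analysed here.

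Hox genes encode homeodomain transcription factors that give cells along the head-to-tail axis and along the limb their positional identity. They sit in 4 clusters, and genes at matching places in different clusters form paralog groups numbered 1 to 13. Low-numbered genes lie at the 3′ end of a cluster and are used early and toward the head, and high-numbered genes lie at the 5′ end and are used later, toward the tail and the tip of the limb. Adult mesenchymal cells such as fibroblasts keep a Hox pattern that reflects where in the body they formed, and in the hind limb this pattern includes posterior HoxC genes.

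In GRCm39, the genome build of the count table, the clusters lie at chr6:52132570-52237788 (HoxA, 105.2 kb), chr11:96085142-96259082 (HoxB, 173.9 kb), chr15:102829538-102945278 (HoxC, 115.7 kb) and chr2:74498654-74595486 (HoxD, 96.8 kb). Paralogs are alike in the homeobox, the 180 bases that encode the DNA-binding homeodomain. Over the 42 pairs of the same paralog group, homeobox sequences were identical at a median of 80.6% of positions (range, 67.2% to 93.9%), against 61.7% over the 172 pairs of different groups in the same cluster. Paralog group 10 is shown because its members behaved unlike each other in these tumors. The 3 sequences below were read from GENCODE transcripts on GRCm39, and capitals mark bases that differ from Hoxa10.
Hoxa10 homeobox, chr6:52209534-52209713, minus strand: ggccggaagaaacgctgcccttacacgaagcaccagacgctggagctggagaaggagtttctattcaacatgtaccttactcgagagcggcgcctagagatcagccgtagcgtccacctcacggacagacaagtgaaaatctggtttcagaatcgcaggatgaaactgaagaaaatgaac
Hoxc10 homeobox, chr15:102879283-102879462, plus strand: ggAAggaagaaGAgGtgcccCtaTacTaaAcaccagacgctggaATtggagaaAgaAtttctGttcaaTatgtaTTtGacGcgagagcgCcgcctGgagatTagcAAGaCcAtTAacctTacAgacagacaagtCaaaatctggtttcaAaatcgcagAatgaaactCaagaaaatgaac
Hoxd10 homeobox, chr2:74524485-74524664, plus strand: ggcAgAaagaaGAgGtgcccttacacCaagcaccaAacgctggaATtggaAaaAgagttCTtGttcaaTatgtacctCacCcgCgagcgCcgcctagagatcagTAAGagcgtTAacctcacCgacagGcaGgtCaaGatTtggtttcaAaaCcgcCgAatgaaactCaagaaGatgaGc
Hoxc10 differed from Hoxa10 at 35 of 180 bases and Hoxd10 at 38. Exact matches of 100 bases between transcripts of different members occurred only for Hoxd3 with Hoxd4 and for Hoxc5 with Hoxc10, which overlap on the genome. Reads of the remaining 35 members were therefore not expected to be split between paralogs.

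Total counts per tumor ranged from 20503474 (3802) to 82138251 (170025). Levels are counts scaled to an equal total per tumor (CPM) after adjustment by trimmed means of M-values (TMM), and 3 counts, taken as the floor of detection, corresponded to 0.0378 to 0.121 TMM-scaled CPM. Intervals and floors cover counting error only and take each count as independent. Mates of a read pair were counted one by one, so counts are not independent and the intervals are too narrow. The CIC_DUX4 transgene stood at 105, 201 and 423 TMM-scaled CPM in the dFLEx tumors and at 0 and 0.243 in KP tumors 3800 and 3802 (exact two-sided permutation test over tumors, p = 0.2, the smallest that 3 against 2 allows). Tumor 3802 stood apart in its background. Olfactory and vomeronasal receptor genes, 1547 genes that these tissues are not known to use, averaged 0.106 CPM per kb there, against 0.00278 to 0.0239 in the other 4 tumors. Of the 39 Hox genes, 26 lay under 10 times that background in 3802, against 6 to 11 in the other tumors. Those of 3802 included Hoxa2, Hoxb1, Hoxb7, Hoxb8, Hoxc5, Hoxc12, Hoxc13, Hoxd1, Hoxd3, Hoxd4, Hoxd10 and Hoxd11, and Hoxa2, Hoxd3 and Hoxd10 lay under the background itself.

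All 5 tumors had a Hox profile dominated by HoxC and by posterior genes. Levels are compared between genes as TMM-scaled CPM per kb of exon. Between 20 and 26 members reached 1 CPM in a tumor. HoxC genes made up 50.6% to 69.7% of the summed Hox level per kb in every tumor, followed by HoxA with 24.8% to 27.5%. Posterior genes, paralog groups 9 to 13, held 63.2% to 68.5% of it in dFLEx tumors and 79.7% and 58.5% in KP tumors 3800 and 3802. The 10 highest members of a tumor carried 78.4% to 86.4% of its Hox signal. Averaged over the 5 tumors, the highest were Hoxc13 (15 CPM per kb), Hoxc9 (13.8), Hoxc10 (13.2), Hoxc11 (11) and Hoxc12 (9.67). Hoxa7, Hoxa10 and Hoxd8 followed at 8.20, 7.96 and 6.97 CPM per kb. These means pool tumors that differed, and the order was not the same in each. Without dFLEx tumor 170025 the mean of Hoxc12 was 4.10, and in KP tumor 3802 neither Hoxc12 nor Hoxc13 (1.05 CPM per kb) was among the 10 highest members. Hoxc10, Hoxc11, Hoxa10 and the central gene Hoxa5 were among the 10 highest in every tumor. At the other end, the most 5′ genes of HoxD and HoxB, used in the embryo at the tip of the limb and at the tail end of the trunk, were silent. Hoxd12 and Hoxd13 had 0 counts in all 9 libraries, which allows up to 0.0378 to 0.121 TMM-scaled CPM by tumor. Hoxb13 had counts only in dFLEx tumor 170024, at 0.0347 TMM-scaled CPM, which is under its floor of 0.052.

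**Figure D1:**
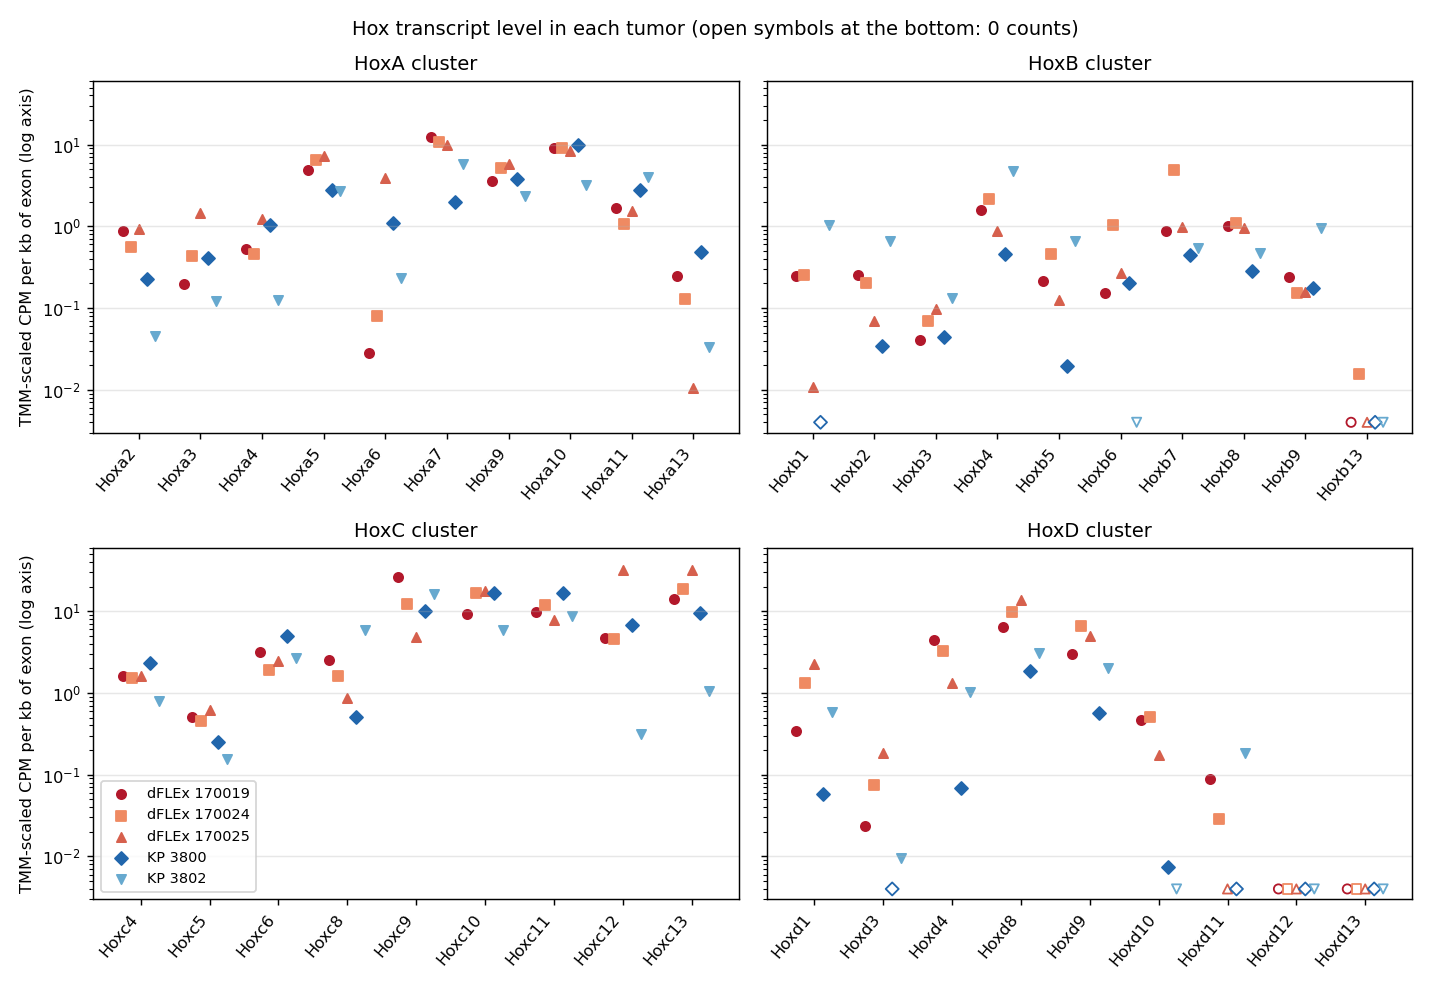
TMM-scaled CPM per kb of exon (log axis) of 38 Hox genes in 3 dFLEx tumors (warm colors) and 2 KP tumors (blue), by cluster and in paralog order, with 1 symbol per tumor and open symbols for 0 counts. Hoxc9 to Hoxc11 lie above 4 CPM per kb in every tumor, whereas Hoxd12 and Hoxd13 are at 0 in every tumor and the HoxD genes from Hoxd3 to Hoxd10 lie higher in the dFLEx tumors.

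No Hox gene passed the test between the groups. By edgeR's quasi-likelihood test on the 5 tumors with p-values adjusted after Benjamini and Hochberg across the whole table, 0 of the 36 tested members had an adjusted p under 0.05, where 0.182% of all 24743 tested genes did (45 genes, namely 0.101% higher and 0.0808% lower in dFLEx tumors). The smallest adjusted p of a member was 0.262, for Hoxd10. At an unadjusted p under 0.05 there were 3 members, Hoxd8, Hoxd9 and Hoxd10, all higher in dFLEx tumors, where 5.65% of all tested genes passed in that direction, and none lower, where 4.93% of all tested genes passed. In 13 members (36.1% of those tested) the lowest dFLEx tumor exceeded the highest KP tumor, against 13.8% of all tested genes, and in 1 member every dFLEx tumor lay below both, against 11.6%. In 12 of the 13 every dFLEx tumor was above its own receptor background, the exception being Hoxd3. On upper quartile scaling 11 members (30.6%) lay above, against 11.4% of all tested genes, and 2 lay below, Hoxa11 and Hoxc11, against 13.8%. Hoxa7, Hoxb7, Hoxb8 and Hoxd4 then overlapped, while Hoxa9 and Hoxb6 lay above at this setting only. Members with few counts in KP tumors entered the test through the dFLEx tumors alone, so these counts describe the family and were not tested as a set. The median log2 fold change (dFLEx over KP) was 0.82 over the 36 tested members and -0.18 over all tested genes, and on library totals without TMM scaling these were 0.60 and -0.47. Without tumor 3802 the count of members above was 19 (52.8%), against 31.4% of all tested genes, and without tumor 3800 it was 21 (58.3%), against 32.6%. Hoxa9 and Hoxb6 were among the members above without tumor 3800 too.

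Other treatments of the libraries gave other counts. DESeq2 on the tumor sums called 1 member, Hoxd8 (log2 fold change 1.90, adjusted p = 0.0482), where it called 8.26% of all genes with an adjusted p. It gave no adjusted p for Hoxa13, Hoxb3, Hoxd3, Hoxd10 and Hoxd11, so these members could not be called in that fit. When each library was entered as an independent sample, edgeR called 9 members, 8 higher and 1 lower, where it called 17.1% of all genes, and DESeq2 called 14, where it called 26.1%. These fits treat duplicates of one RNA as independent, so their p-values measure in part the spread between duplicates. Duplicates differed by a median of 0.12 to 0.25 on the log2 CPM scale over members with at least 100 counts in a tumor.

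**Figure D2:**
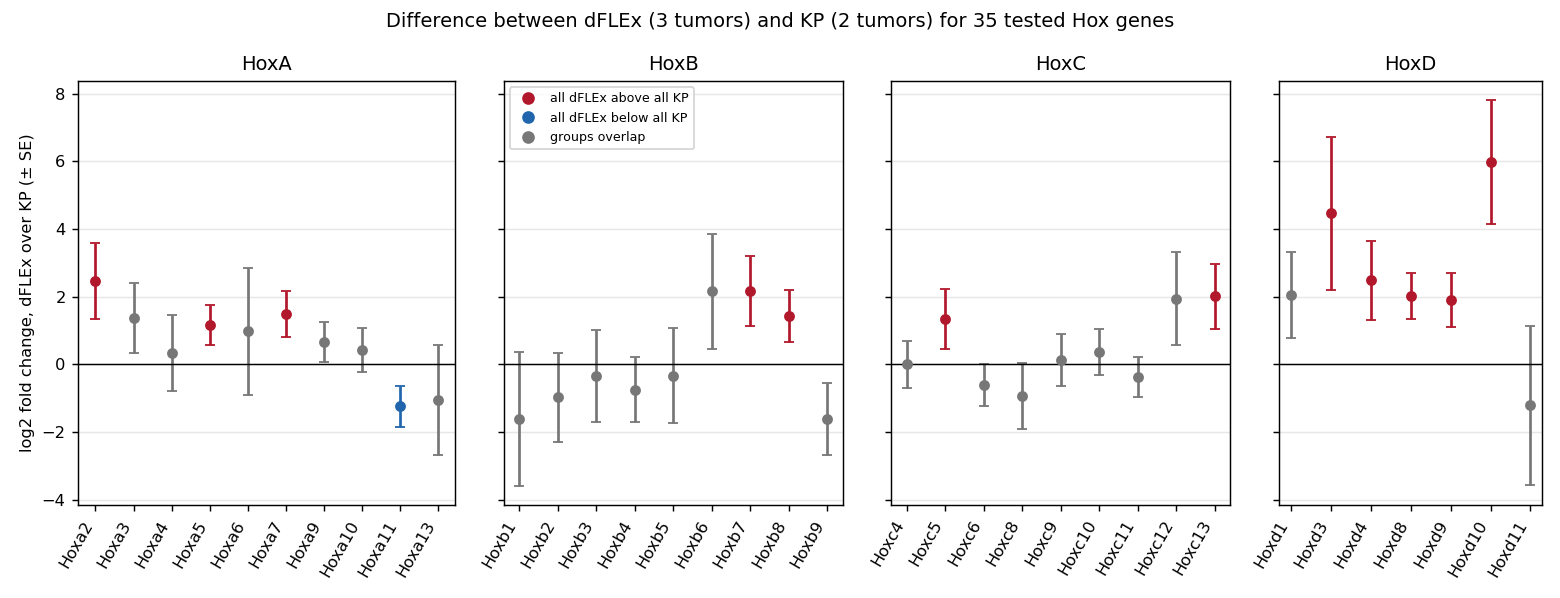
Log2 fold change of dFLEx (3 tumors) over KP (2 tumors) with its standard error, from edgeR, for 35 tested Hox genes in paralog order within each cluster, colored by whether the tumors of the groups overlap. The 5 HoxD genes in red, from Hoxd3 to Hoxd10, have values of 1.91 to 5.97, and no member passed an adjusted p of 0.05.

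The clusters differed in how far the groups lay apart, and HoxD stood furthest. Its median log2 fold change over 7 tested genes was 2.06, compared with 0.98 for HoxA (11 genes), 0.13 for HoxC (9) and -0.34 for HoxB (9). The summed HoxD level was 14.7, 21.6 and 22.6 CPM per kb in dFLEx tumors 170019, 170024 and 170025 and 2.57 and 6.85 in KP tumors 3800 and 3802. HoxD thereby held 11.7%, 15.8% and 13.4% of all Hox signal in the dFLEx tumors and 2.66% and 8.92% in the KP tumors, and the groups did not overlap on either measure. KP tumor 3800 was the lowest for Hoxd1, Hoxd3, Hoxd4, Hoxd8 and Hoxd9, and without tumor 3802 the HoxD median rose to 5.46, since only 3800 then stood for KP.

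Hoxd8, a central HoxD gene at chr2:74534959-74538277, had the highest level per kb of the cluster in every tumor. It was at 17.7, 27.2 and 37.3 TMM-scaled CPM in dFLEx tumors 170019, 170024 and 170025 and at 5.13 and 8.37 in KP tumors 3800 and 3802. The lowest dFLEx tumor thus lay above the highest KP tumor, and the log2 fold change was 2.02 (SE 0.67, adjusted p = 0.310 by edgeR). Hoxd9, the next gene toward the 5′ end and a patterning gene of the proximal limb, was at 6.31, 13.9 and 10.8 CPM in the same dFLEx tumors and at 1.22 and 4.29 in the KP tumors. The groups did not overlap there either (log2 fold change 1.91, SE 0.80, adjusted p = 0.452 by edgeR).

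Hoxd10, which helps pattern the hind limb and its motor neurons, was low in dFLEx tumors and at the limit of detection in KP tumors. It was at 0.845, 0.918 and 0.315 CPM in dFLEx tumors 170019, 170024 and 170025 and at 0.0134 and 0 in KP tumors 3800 and 3802. These values rest on 112 counts over the dFLEx libraries and 1 count over the KP libraries, a ratio of 62.6 per effective read (95% exact interval, 11 to 2.5e+03). Its fitted log2 fold change of 5.97 (SE 1.83) therefore depends on the prior count. Its paralogs, whose homeoboxes are printed above, did not follow it. Hoxa10 was at 30.1, 29.4 and 27.5 CPM in the dFLEx tumors and at 32.5 and 10.5 in the KP tumors, and Hoxc10 was at 17.8, 31.6 and 34.1 against 31.4 and 11.1. Both genes overlapped between the groups, with KP tumor 3800 within or above the range of the dFLEx tumors and 3802 the lowest.

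Toward the 3′ end of HoxD, Hoxd4, an anterior gene used in hindbrain and neck, was at 13, 9.63 and 3.89 CPM in dFLEx tumors 170019, 170024 and 170025 and at 0.201 and 2.99 in KP tumors 3800 and 3802. The groups did not overlap, and the nearest tumors of the 2 groups differed by less than the range of the dFLEx tumors (log2 fold change 2.48, SE 1.17, adjusted p = 0.536 by edgeR). Hoxd3 was at 0.0994, 0.312 and 0.768 CPM in the dFLEx tumors and at 0 and 0.0404 in the KP tumors, or 83 counts against 1. In tumor 170019 this was 4 counts, or 0.0237 CPM per kb beside a receptor background of 0.0239, so the separation of Hoxd3 rests on a value at background level. Of the exonic bases of Hoxd3, 62.8% are shared with other genes, and 52.3% of those of Hoxd4. Reads that fell on bases shared by several genes were not counted, so the levels of both are understated. HoxD without Hoxd3 and Hoxd4 still summed to 10.3, 18.3 and 21.0 CPM per kb against 2.51 and 5.83. Hoxd1 ranged from 0.646 to 4.22 CPM in dFLEx tumors and was at 0.107 and 1.09 in KP tumors, so its groups overlapped. Hoxd11 was below 1 CPM in every tumor and highest in 3802, at 0.769 CPM.

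The neighbours of HoxD were measured as well. Haglr, a long non-coding RNA between Hoxd3 and Hoxd1, was at 18.6, 7.61 and 4.46 CPM in dFLEx tumors 170019, 170024 and 170025 and at 0.0537 and 0.728 in KP tumors 3800 and 3802. Its groups did not overlap (log2 fold change 4.79, SE 1.32, adjusted p = 0.215 by edgeR). Hoxd3os1, transcribed opposite to the coding genes, followed the same order of groups, at 4.42, 3.74 and 3.46 CPM against 0.524 and 2.79. The protein-coding genes outside the cluster overlapped between the groups. Lnpk, on the 5′ side, was at 13.1 to 20.4 CPM in dFLEx tumors and at 22.4 and 17.6 in KP tumors, and Mtx2, on the 3′ side, was at 59.2 to 73.9 against 69.7 and 24.3. Their log2 fold changes were -0.29 (SE 0.57) and 0.47 (SE 0.63).

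**Figure D3:**
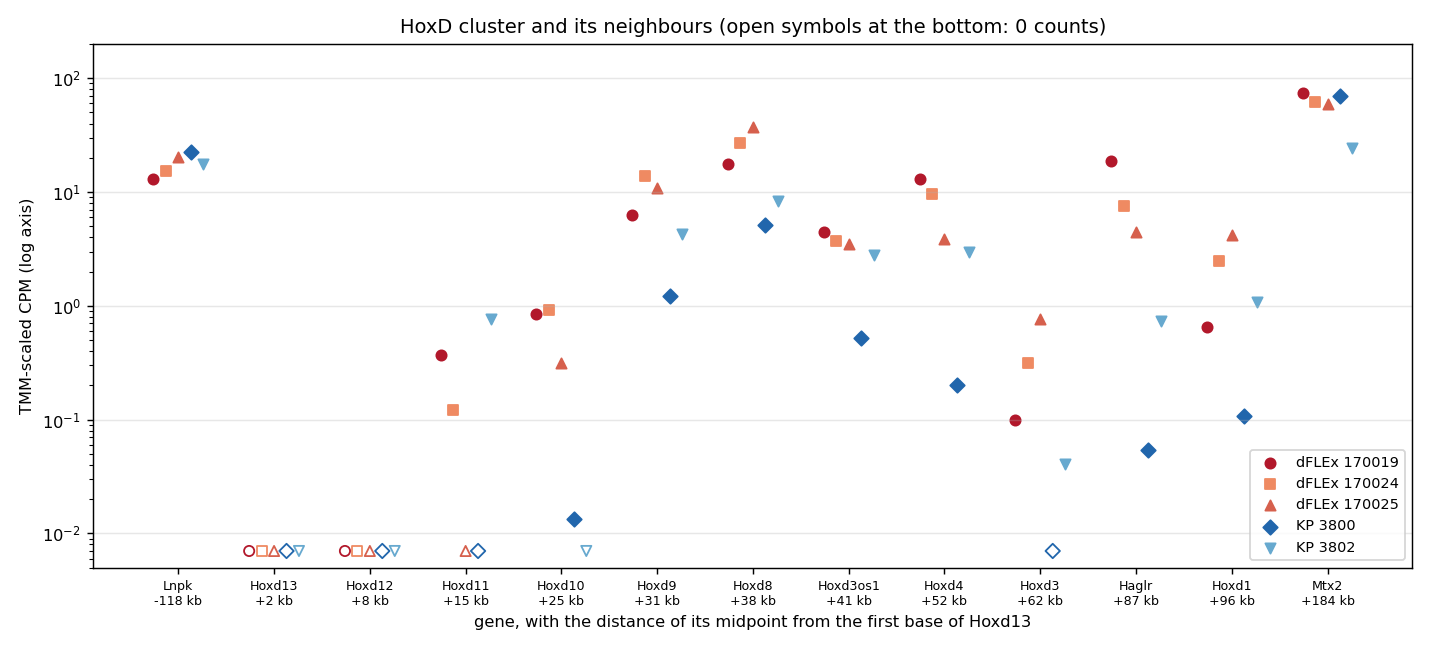
TMM-scaled CPM (log axis) of the HoxD genes, 2 non-coding neighbours and the flanking genes Lnpk and Mtx2 in 3 dFLEx and 2 KP tumors, ordered by the distance of each midpoint from the first base of Hoxd13, with open symbols for 0 counts. From Hoxd10 to Haglr the dFLEx tumors lie above both KP tumors, whereas the groups overlap at Lnpk, Hoxd1, Hoxd11 and Mtx2.

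The promoters of Hoxd8, Hoxd9 and Hoxd10 are printed because these adjacent genes had the smallest unadjusted p of the family. Each is the 250 bases before the start of the RefSeq transcript (sequence table of GRCm38.p6, located in GRCm39 by an exact match). The plus strand of chr2 carries all of them.
Hoxd8, chr2:74534709-74534958: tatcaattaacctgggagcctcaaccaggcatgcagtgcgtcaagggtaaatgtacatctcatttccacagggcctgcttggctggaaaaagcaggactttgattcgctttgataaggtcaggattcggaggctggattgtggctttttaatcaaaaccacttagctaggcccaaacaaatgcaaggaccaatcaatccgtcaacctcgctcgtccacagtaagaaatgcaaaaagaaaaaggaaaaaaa
Hoxd9, chr2:74527857-74528106: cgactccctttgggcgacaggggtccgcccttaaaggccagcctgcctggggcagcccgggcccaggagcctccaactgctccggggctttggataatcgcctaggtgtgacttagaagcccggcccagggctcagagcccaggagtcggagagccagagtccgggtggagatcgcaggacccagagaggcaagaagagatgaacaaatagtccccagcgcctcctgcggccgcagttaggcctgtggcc
Hoxd10, chr2:74521985-74522234: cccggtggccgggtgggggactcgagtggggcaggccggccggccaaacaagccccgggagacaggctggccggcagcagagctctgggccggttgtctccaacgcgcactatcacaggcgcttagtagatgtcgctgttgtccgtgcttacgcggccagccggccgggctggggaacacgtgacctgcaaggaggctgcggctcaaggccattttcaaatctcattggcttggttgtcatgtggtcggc
CIC, the DNA-binding part of the fusion, is known to bind octamers of the forms TGAATGAA, TGAATGGA, TCAATGAA and TCAATGGA. These were searched for on both strands, and none is in the 3 windows above. Over the 24 Hox promoters matched in the table, from 22 genes, 1 held such an octamer, and 3.19% of all 32851 promoters of that length did. That promoter belongs to Hoxb4, plus strand, and holds the reverse complement of TGAATGGA, in capitals, beginning 200 bases before the start.
Hoxb4, chr11:96208843-96209092: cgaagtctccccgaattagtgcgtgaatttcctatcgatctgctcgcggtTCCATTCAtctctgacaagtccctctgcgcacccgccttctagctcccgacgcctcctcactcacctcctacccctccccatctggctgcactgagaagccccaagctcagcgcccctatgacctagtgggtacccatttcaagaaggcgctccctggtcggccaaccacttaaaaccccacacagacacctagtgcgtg
Hoxb4 itself was at 4.08, 5.56 and 2.25 CPM in dFLEx tumors 170019, 170024 and 170025 and at 1.17 and 12.1 in KP tumors 3800 and 3802. KP tumors were both the lowest and the highest, and the groups overlapped.

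In HoxA, genes of the 3′ and central parts such as Hoxa2, Hoxa5 and Hoxa7 were higher in every dFLEx tumor, and none of the 5′ genes from Hoxa9 to Hoxa13 was. Hoxa7, a regulator of trunk identity and the most expressed gene of the cluster per kb in every tumor but 3800, was at 35.5, 31.3 and 28.4 CPM in dFLEx tumors 170019, 170024 and 170025 and at 5.75 and 16.8 in KP tumors 3800 and 3802. Hoxa5, which patterns the neck, lung and shoulder region, was at 9.07, 12.2 and 13.6 CPM against 5.25 and 5.10. In both genes the groups did not overlap, with log2 fold changes of 1.49 (SE 0.68) and 1.17 (SE 0.60) and adjusted p values of 0.514 and 0.600 by edgeR. Hoxa2, a hindbrain gene, was low but also apart. It was at 1.54, 0.988 and 1.64 CPM in dFLEx tumors and at 0.403 and 0.0809 in KP tumors 3800 and 3802. The value of 3802 is 2 counts, under its floor of 0.121 CPM, and its 0.0456 CPM per kb lay below the receptor background of 0.106. Hoxa11, needed for the forearm, lower leg and uterus, was the 1 member with every dFLEx tumor below both KP tumors, at 3.88, 2.46 and 3.54 CPM against 6.41 and 9.10 (log2 fold change -1.24, SE 0.61, adjusted p = 0.566 by edgeR). Of its exonic bases, 35.0% are shared with the antisense RNA Hoxa11os, which was at 10.8 CPM in 3802 and at 0.745 to 3.23 in the other tumors. Reads on the shared bases were counted for neither gene, so both levels are understated. Hoxa9, Hoxa3, Hoxa4, Hoxa6 and Hoxa13 overlapped between the groups. Hoxa6 ranged from 0.0249 to 3.40 CPM among dFLEx tumors. Hotairm1, a non-coding RNA of the cluster, was at 14, 4.28 and 2.27 CPM against 1.11 and 2.51, the groups overlapping.

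In HoxC, the cluster with the most signal, the posterior genes Hoxc9 to Hoxc12 overlapped between the groups. Hoxc9 was at 63.1, 29.6 and 11.9 CPM in dFLEx tumors 170019, 170024 and 170025 and at 24.3 and 39.4 in KP tumors 3800 and 3802. Hoxc11 was at 15.7 to 23.9 CPM in dFLEx tumors and at 33.6 and 17.9 in KP tumors. Neither gene separated the groups, and log2 fold changes were 0.13 (SE 0.77) and -0.38 (SE 0.59). Hoxc13, the most 5′ gene, known for its role in hair and nail, was at 35.0, 45.8 and 78.0 CPM in dFLEx tumors and at 23.6 and 2.59 in KP tumors. All dFLEx tumors exceeded both KP tumors, which themselves differed more from each other than 23.6 did from the nearest of the other group. The log2 fold change of Hoxc13 was 2.01 (SE 0.97, adjusted p = 0.552 by edgeR). Hoxc12, beside it, was at 4.87, 4.70 and 32.9 CPM in dFLEx tumors and at 7.02 and 0.324 in KP tumors. High Hoxc12 was thus a feature of dFLEx tumor 170025, and low Hoxc12 and Hoxc13 of KP tumor 3802. Hoxc5 was at 1.57, 1.39 and 1.89 CPM in dFLEx tumors and at 0.779 and 0.485 in KP tumors, the groups not overlapping, while Hoxc4, Hoxc6 and Hoxc8 overlapped. Hotair, a non-coding RNA between Hoxc11 and Hoxc12, was at 12.3, 5.58 and 4.39 CPM in dFLEx tumors and at 2.89 and 0.769 in KP tumors (log2 fold change 2.00, SE 0.87, adjusted p = 0.473 by edgeR). On TMM-scaled values the summed HoxC level was 69.2 to 99.7 CPM per kb in dFLEx tumors and 67.5 and 41.7 in KP tumors, but on library totals the groups overlapped.

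HoxB had no common direction, and it was the weakest cluster in the dFLEx tumors and in KP tumor 3800 but not in 3802, where HoxD was lower. Its genes summed to 3.53 to 10.3 CPM per kb in dFLEx tumors and to 1.66 and 9.19 in KP tumors, so the groups overlapped. Hoxb7 was at 1.34, 7.5 and 1.51 CPM in dFLEx tumors 170019, 170024 and 170025 and at 0.685 and 0.849 in KP tumors 3800 and 3802. Hoxb8 was at 2.68, 2.91 and 2.49 CPM against 0.752 and 1.25. These adjacent central genes were the 2 of HoxB whose groups did not overlap, with adjusted p values of 0.547 and 0.620 by edgeR. Of the tested genes toward the 3′ end, Hoxb1 to Hoxb5, each was highest in 3802, as was Hoxb9, and 3800 was the lowest for Hoxb1, Hoxb2, Hoxb4 and Hoxb5. Hoxb1, a hindbrain gene, stood at 2.43 CPM in 3802, or 1.05 CPM per kb where the receptor background was 0.106, and at 0 in 3800. Hoxb3 was close to that background in 3802, at 0.133 CPM per kb. Hoxb2 and Hoxb3 share 27.3% and 53.1% of their exonic bases with the non-coding RNA Hoxb3os, so their levels are understated. Skap1, a lymphocyte adaptor gene on the 3′ flank of HoxB, was also highest in 3802, at 5.58 CPM against 0.667 to 2.99 in the other tumors. The HoxB median of -0.34 turned to 1.86 without tumor 3802, and to 1.22 in limma-voom and 1.21 over the 3 HoxB genes averaging 1 CPM or more.

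Across the clusters, central paralog groups 5 to 8 had a median log2 fold change of 1.34 (11 genes), anterior groups 1 to 4 had 0.85 (12 genes) and posterior groups 9 to 13 had 0.38 (13 tested of 16). The summed central level was 32.1, 38.8 and 40.8 CPM per kb in dFLEx tumors and 14.4 and 22.2 in KP tumors, apart also on library totals. The anterior and posterior sums were apart on TMM-scaled values but overlapped on library totals. The anterior median was -0.02 without dFLEx tumor 170025. Paralog group 7, made up of Hoxa7 and Hoxb7, was at 13.2, 15.8 and 10.9 CPM per kb in dFLEx tumors and at 2.44 and 6.40 in KP tumors. Group 11 ran the other way, at 11.6, 12.9 and 9.32 against 19.4 and 13, and held 5.54% to 9.44% of the Hox signal in dFLEx tumors and 20% and 17% in KP tumors. Groups 5, 7 and 13 were above, and group 11 below, on both scales. The nearest tumors of group 11 were at 12.9 (170024) and 13 (3802), or at 12.3 and 15.7 on library totals. Of its members only Hoxa11 was apart, as was only Hoxc13 in group 13.

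**Figure D4:**
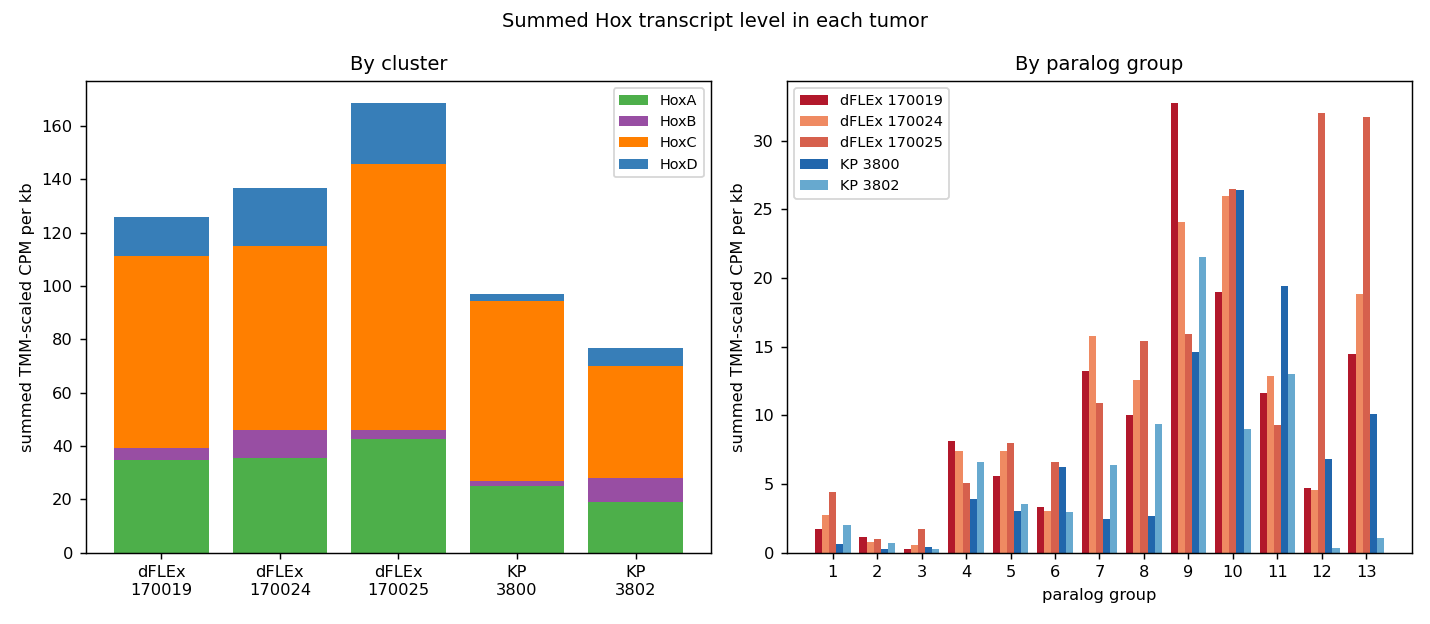
Summed TMM-scaled CPM per kb of the Hox genes in each tumor, stacked by cluster (left) and side by side for each paralog group (right), for 3 dFLEx and 2 KP tumors. HoxC makes up 50.6% to 69.7% of every bar, and the HoxD part is 14.7 to 22.6 in dFLEx and 2.57 and 6.85 in KP tumors. Group 11 is the 1 group in which both KP tumors lie above the 3 dFLEx tumors, by 13 against 12.9 at the nearest.

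Genes that act with or upstream of Hox genes were counted from lists, and 0 genes were called in any of them by edgeR, where 0.182% of all tested genes were. Of 9 TALE homeodomain cofactors, the Pbx, Meis and Pknox proteins that bind DNA together with Hox proteins, 7 had a log2 fold change above 0 (median 0.44), as did 43.4% of all tested genes. The groups did not overlap in 2 of them, 1 above and 1 below in dFLEx tumors. Over all tested genes, 13.8% lay above and 11.6% below in every dFLEx tumor. Pbx2 was at 59.7, 82.1 and 97.5 CPM in dFLEx tumors and at 43 and 38.6 in KP tumors, and Meis3 was at 3.63, 5.16 and 4.56 against 7.20 and 7.56. Of 16 Polycomb genes, whose products keep Hox clusters silent, 12 were above 0 (median 0.43). The Polycomb gene furthest from 0 was Cbx2, at 42.7, 45 and 112 CPM against 13.2 and 6.23 (log2 fold change 2.77, SE 0.77, adjusted p = 0.220 by edgeR). The 9 Trithorax and demethylase genes, which oppose Polycomb, had a median of 0.01.

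Retinoic acid switches on 3′ Hox genes in the embryo, and of its 12 listed enzymes, receptors and Cdx factors 11 were tested, 6 of them above 0 (median 0.25). The groups did not overlap in 5, of which 4 were higher and 1 lower in dFLEx tumors. Of all tested genes, 13.8% were higher and 11.6% lower in every dFLEx tumor. Cyp26b1, which degrades retinoic acid and does so in the limb bud, was at 105, 166 and 508 CPM in dFLEx tumors 170019, 170024 and 170025 and at 0.833 and 2.14 in KP tumors 3800 and 3802. The groups lay far apart (log2 fold change 7.46, SE 1.15, adjusted p = 0.0744 by edgeR). Aldh1a1 and Aldh1a3, which make retinoic acid, had log2 fold changes of 2.38 (SE 0.70) and 2.43 (SE 0.91), with every dFLEx tumor above both KP tumors. Aldh1a2, the third such enzyme, overlapped, at 1.59, 21.2 and 13.1 CPM against 3.79 and 6.39. Of the other degrading enzymes, Cyp26a1 was above in every dFLEx tumor, at 0.797 to 2.21 CPM against 0.430 and 0.566. Cyp26c1 was below in every one, at 0.0126 to 0.225 CPM against 0.497 and 0.688 (log2 fold change -2.19, SE 1.54). Its lowest value, in 170025, lay under the floor of that tumor, 0.0378 CPM. The receptors Rara, Rarb and Rarg overlapped, at 0.25 (SE 0.61), -1.24 (SE 1.27) and -0.18 (SE 0.66).

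The genes that tell hind limb from forelimb did not sort the tumors by group. Pitx1, the hind limb selector, was at 11.8, 11.9 and 5.58 CPM in dFLEx tumors and at 0.215 and 38.3 in KP tumors 3800 and 3802. Tbx4, its hind limb partner, was at 2.01, 1.02 and 1.32 CPM against 12.1 and 1.13. Of Pitx1 and Tbx4, each KP tumor was thus high in a different one. Tbx5, the forelimb gene, was at most 2.75 CPM, in 3802. Isl1, also listed, was highest in 3802 too, at 4.65 CPM against 0.161 to 1.27 in the other tumors. Among 8 other limb homeobox genes, Prrx1, a marker of limb mesenchyme, was below both KP tumors in all dFLEx tumors, at 17.6 to 46.4 CPM against 291 and 77.9 (log2 fold change -2.59, SE 0.74, adjusted p = 0.230 by edgeR). Dlx5 was at 2.14 to 2.32 CPM in dFLEx tumors and at 0 and 0.121 in KP tumors 3800 and 3802. The value of 3802 is at its floor of 0.121 CPM, and its 0.0536 CPM per kb lay below the receptor background of 0.106. The rest of these genes, Dlx6, Lmx1b, Msx1, Msx2, Prrx2 and Shox2, overlapped between the groups.

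The tumors also differed in markers of other cells, which have Hox patterns of their own. Beside the counts of marker genes whose groups lay apart, 13.8% of all tested genes were above and 11.6% below in every dFLEx tumor. Fibroblast markers, 7 genes, summed to 2720 to 9020 CPM in dFLEx tumors and to 2460 and 1690 in KP tumors, with 4 of 7 genes apart. Myocyte markers, 10 genes, summed to 10400 to 38700 against 1530 and 4970, with 7 of 10 apart. The 4 genes listed for satellite cells and myogenic regulation (Pax7, Myf5, Myod1, Myog) ran the other way, at 9.50 to 35.4 against 239 and 332. Of these, 3 of 4 were apart. Pax7, the satellite cell marker, overlapped, at 0.771, 1.65 and 4.12 CPM in dFLEx tumors 170019, 170024 and 170025 against 7.52 and 2.91 in KP tumors 3800 and 3802. Myog was the largest part of the KP sums, at 112 and 253 CPM. Macrophage markers, 7 genes, summed to 571 to 754 in dFLEx tumors and to 1230 and 4000 in KP tumors, with 4 of 7 apart. C1qa alone was at 3080 CPM in 3802, and 2 of the 7, Cd68 and Cd163, had log2 fold changes above 0. Endothelial markers (7 genes) summed to 225 to 569 against 153 and 89.0, with 3 of 7 apart. Pericyte markers (5 genes) summed to 546 to 978 against 370 and 60.4, with 2 of 5 apart. Lymphocyte markers, 7 genes, summed to 54.7 in 3802 and to 6.56 to 8.65 in the other tumors. In 2 of the 7, Cd3d and Cd8a, every dFLEx tumor lay below both KP tumors. No marker was at 0 in any tumor. Fewer cells of a type and less RNA per cell cannot be told apart in bulk tumors, and the part of these cells in the Hox values was not tested.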

How the data were processed

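Flash-frozen dFLEx CDS and KP tumors were profiled by rRNA-depleted, 150-bp paired-end RNA-seq. The deposited values are raw counts per gene that the authors made with Trimmomatic 0.39, STAR 2.7.10a (mm39 with the CIC::DUX4 construct) and featureCounts of Subread 2.0.3. Per the file header, mates were counted one by one, without strand, and reads on bases shared by several genes or mapped to several places were not counted. The table holds 9 of the 10 labelled libraries. Symbols came from GENCODE (56017 of 56750 identifiers, 98.7%). Members and lists were chosen with earlier results of these data known.

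Counts of a tumor's libraries were summed (20503474 to 82138251 per tumor), filtered with filterByExpr, TMM-scaled and tested with edgeR 4.0.16 (R 4.3.3) glmQLFit and glmQLFTest, Benjamini-Hochberg threshold 0.05. A standard error is the size of the log2 fold change over the root of F. The pipeline was tested on simulated data. DESeq2 1.42.0 and limma 3.58.1 were alternatives, as the study used DESeq2 without stating how duplicates were handled. Whether tumors of a group came from separate mice is not stated, so p-values measure the spread between these tumors. Exact permutation used SciPy 1.17.1. Values per tumor are given for members with an adjusted p under 0.05, members whose groups do not overlap, the 3 highest per kb of each cluster and members at 0 in a group, with list genes and features within 100 kb of a cluster named beside them. Some items are not reported here.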

Additional observations from a re-analysis of the deposited data

How the results depend on the processing

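Under the main test 45 genes and 0 Hox genes were called. With each library as an independent sample edgeR called 3344 genes and 9 members, Hoxd8, Hoxd9 and Hoxd10 among them, and DESeq2 called 5042 and 14. With the duplicate number as a replicate block the edgeR counts were 2476 and 3, with Hoxd8 and Hoxd10 among them. The number marks duplicates of one RNA and does not pair tumors, as differences between duplicates correlated at -0.04 to 0.15 between tumors. DESeq2 on tumor sums called 1528 genes and 1 member, limma-voom 543 genes, no filter 880, a mean of at least 1 CPM 80 and counts divided by 2 gave 72, the last 4 with 0 members. DESeq2 size factors, library totals, upper quartile scaling, the first library alone and subtraction of the receptor background (added after the data were seen) called 0 members. Leaving out 1 tumor gave 0 to 414 genes, the highest without 3802, and 0 members each time.

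The anterior median of 0.85 moved to 0.05, 0.04 and 0.04 in edgeR, the block fit and DESeq2 on libraries, and the HoxB median to 1.22 in limma-voom and 1.21 at 1 CPM. The cause was not tested. Leaving out 1 tumor, medians ranged from 0.38 to 1.39 for all members, 0.37 to 2.04 for HoxA, -1.15 to 1.86 for HoxB, -0.02 to 1.16 for HoxC, 1.71 to 5.46 for HoxD, -0.02 to 1.79 for anterior, 1.11 to 1.74 for central and 0.30 to 1.43 for posterior genes.

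Members without a clear difference changed sign. The log2 fold change of Hoxc4 was -0.17, -0.19 and -0.19 in edgeR, the block fit and DESeq2 on libraries, -0.03 in DESeq2 on tumors, -0.08 in limma-voom, -0.03 with DESeq2 size factors, -0.25 on library totals, -0.01 at 1 CPM, -0.02 with halved counts and -0.03 with the first library. That of Hoxc9 was -0.34 in limma-voom, -0.24 on library totals, -0.02 with upper quartile scaling and -0.02 at 1 CPM. In limma-voom Hoxa6 was -0.80, Hoxb1 1.22, Hoxb2 0.77, Hoxb3 0.02 and Hoxb5 1.59. Hoxb5 was 0.04 with libraries as samples in edgeR, and Hoxb3 0.63 after background subtraction. Leaving out 1 tumor, values spanned 0 for Hoxa4 (-0.46 to 2.7), Hoxa6 (-3.55 to 2.7), Hoxa10 (-0.15 to 1.62), Hoxa13 (-1.93 to 2.04), Hoxb1 (-2.48 to 7.64), Hoxb2 (-1.76 to 2.34), Hoxb3 (-0.77 to 0.67), Hoxb4 (-1.46 to 1.78), Hoxb5 (-1.15 to 3.75), Hoxb9 (-2.22 to 0.07), Hoxc4 (-0.56 to 1.16), Hoxc6 (-0.95 to 0.05), Hoxc8 (-1.66 to 1.74), Hoxc9 (-0.68 to 0.54), Hoxc10 (-0.16 to 1.48), Hoxc11 (-0.74 to 0.30) and Hoxd11 (-2.10 to 6.37). None of the 14 members whose groups did not overlap changed sign in these fits. On library totals the mean level of each Hox gene over all tumors moved by less than the spread between tumors. TMM factors were 0.848 to 0.967 in dFLEx tumors and 1.062 and 1.206 in KP tumors 3800 and 3802. Shifts of the groups thus offset each other in that mean, which cannot show whether scaling matters between groups. The summed HoxC, anterior and posterior levels and those of paralog groups 2 and 8 were apart on TMM-scaled values and overlapped on library totals. The HoxA, HoxD and central sums stayed apart. Low members of 3802 are limited by its single library of 20503474 counts.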
